A study of Mus musculus with 15 samples.

Results

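The nuclear-encoded genes of oxidative phosphorylation were examined in the cortex of mice given high-frequency head impacts (HF-HI) 1 month earlier, and in Sham controls. Members were the protein_coding transcripts whose GENCODE M21 gene name begins with Nduf followed by a, b, c, s or v, with Uqcr, with Cox4 to Cox8 followed by a, b, c or i, or with Atp5, or is Sdha, Sdhb, Sdhc or Sdhd. The rule gave 86 transcripts of 77 genes, out of 10370 transcripts listed in the series. By complex, these were 38 transcripts of complex I, 3 of complex I assembly factors (Ndufaf3, Ndufaf5 and Ndufaf7), 4 of complex II, 8 of complex III, 12 of complex IV and 21 of complex V. Another 16 genes that fit the names had no member transcript and were not analysed as members. Among them were the muscle forms Cox6a2, Cox7a1 and Cox8b, and also Ndufa5 and Ndufab1. Ndufa5 and Ndufaf4 each had 1 listed transcript of another type, counted below with those that are not protein_coding.

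The libraries came from dissected cortex of male C57BL/6 mice (C57Bl/6J in the study's methods) labelled 12 weeks of age. Sham (n = 7) received anesthesia and handling without impacts, and HF-HI (n = 8) received repeated head impacts under isoflurane on consecutive days. All libraries were of total RNA from whole tissue, so a lower proportion of a cell type and less RNA per cell cannot be told apart. The labels do not state whether each library is a separate animal, and p-values then measure only the spread between these samples, which may be technical.

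Oxidative phosphorylation is the last stage of respiration. Complex I takes electrons from NADH and complex II takes them from succinate, complex III passes them from ubiquinol to cytochrome c, and complex IV passes them to oxygen. Complexes I, III and IV pump protons across the inner mitochondrial membrane, and complex V, the ATP synthase, uses that gradient to make ATP. The mitochondrial genome encodes a few core subunits of complexes I, III, IV and V, while complex II and the rest are encoded in the nucleus, so the 2 genomes must supply matched parts. In the brain the pathway carries most of the energy cost of synaptic signaling.

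Ndufb5 encodes an accessory subunit of the complex I membrane arm and had 2 member transcripts that begin at different places. ENSMUST00000127477 (GRCm38, chr3:32736990-32751566, plus strand, 6 exons, coding sequence of 567 bases) opens with 124 coding bases in its first exon, at chr3:32737082-32737205. ENSMUST00000122290 (chr3:32744756-32751230, 5 exons, coding sequence of 357 bases) lacks them and begins downstream. These coding bases are shown because they separate the pair, with the start codon in capitals.

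Ndufb5 first coding exon: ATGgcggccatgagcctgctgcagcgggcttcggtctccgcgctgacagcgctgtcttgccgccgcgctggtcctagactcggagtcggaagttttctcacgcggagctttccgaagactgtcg

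The promoters of 64 of the 77 member genes were matched in a RefSeq table (GRCm38.p6), which holds 300 bases for each of 68 starts, from 250 before to 50 after the start. They were searched on both strands for short motifs of factors known to act on respiratory genes, without regard to overlap with other motifs. The NRF1 core GCGCANGCG was in 29.4% of member promoters, in 14.8% of the promoters of all listed genes and in 6.25% of all promoters in the table. The ETS core CCGGAAG, to which GABPA binds, was in 23.5%, 16.6% and 8.86% of the same sets, and the YY1 core AAGATGGCG was in 10.3%, 3.2% and 1.4%. The SP1 box GGGCGG was in 36.8% of member promoters, 64.9% of those of listed genes and 35.7% of all, and TATAAA was in 8.82%, 6.57% and 13.6%. At least 1 of the NRF1, ETS and YY1 cores was in 35 of the 68 member promoters, or 51.5%, against 30.5% of those of listed genes. By complex, the NRF1 core was in 7 of 31 promoters of complex I, 2 of 3 of complex II, 2 of 5 of complex III, 1 of 10 of complex IV and 7 of 16 of complex V. The YY1 core was in 5 promoters of complex I and 2 of complex V. A match is a string of letters and not a measured site. The promoters below are those of the 4 genes with a called transcript or a called sum of reads (Atp5j, Atp5j2, Ndufb5 and Ndufv2), and of Sdha and Cox6a1, which held 3 NRF1 matches each. The promoters of Ndufb4 and Uqcrc1, which are not printed, also held 3 each. A palindromic match was counted on each strand. Capitals mark the NRF1, ETS and YY1 cores.

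Atp5j, start of ENSMUST00000023608, chr16:84835576-84835875, minus strand: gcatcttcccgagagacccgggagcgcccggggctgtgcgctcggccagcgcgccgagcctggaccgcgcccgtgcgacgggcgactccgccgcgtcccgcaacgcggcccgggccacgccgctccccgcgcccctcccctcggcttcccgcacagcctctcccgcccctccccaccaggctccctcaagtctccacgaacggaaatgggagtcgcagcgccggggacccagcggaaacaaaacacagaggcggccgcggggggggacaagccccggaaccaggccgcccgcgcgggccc

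Atp5j, the other start in the table, chr16:84834927-84835226, minus strand: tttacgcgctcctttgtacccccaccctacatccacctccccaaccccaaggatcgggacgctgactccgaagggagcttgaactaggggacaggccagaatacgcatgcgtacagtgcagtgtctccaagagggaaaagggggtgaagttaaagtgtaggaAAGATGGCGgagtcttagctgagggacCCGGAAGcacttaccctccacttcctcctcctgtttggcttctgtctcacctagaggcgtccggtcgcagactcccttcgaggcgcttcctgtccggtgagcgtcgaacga

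Atp5j2, chr5:145191492-145191791, minus strand: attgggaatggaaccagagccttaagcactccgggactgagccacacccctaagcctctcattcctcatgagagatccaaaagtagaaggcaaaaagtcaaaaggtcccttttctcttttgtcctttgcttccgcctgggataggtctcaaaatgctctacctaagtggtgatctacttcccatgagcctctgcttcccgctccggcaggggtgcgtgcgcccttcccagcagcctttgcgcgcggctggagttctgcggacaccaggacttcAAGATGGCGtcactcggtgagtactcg

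Ndufb5, chr3:32736813-32737112, plus strand: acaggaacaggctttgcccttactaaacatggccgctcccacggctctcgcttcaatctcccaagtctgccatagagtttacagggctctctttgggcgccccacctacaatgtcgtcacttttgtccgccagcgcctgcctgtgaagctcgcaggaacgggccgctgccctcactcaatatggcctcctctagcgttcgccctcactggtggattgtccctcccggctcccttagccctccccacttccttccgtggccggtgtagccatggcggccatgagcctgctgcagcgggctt

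Ndufv2, chr17:66101510-66101809, minus strand: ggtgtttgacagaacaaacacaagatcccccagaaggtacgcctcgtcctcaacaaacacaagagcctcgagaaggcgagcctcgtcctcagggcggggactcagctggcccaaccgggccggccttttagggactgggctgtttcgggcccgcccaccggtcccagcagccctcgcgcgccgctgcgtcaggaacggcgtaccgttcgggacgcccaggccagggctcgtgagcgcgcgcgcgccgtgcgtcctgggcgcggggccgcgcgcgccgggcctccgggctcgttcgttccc

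Sdha, chr13:74350191-74350490, minus strand: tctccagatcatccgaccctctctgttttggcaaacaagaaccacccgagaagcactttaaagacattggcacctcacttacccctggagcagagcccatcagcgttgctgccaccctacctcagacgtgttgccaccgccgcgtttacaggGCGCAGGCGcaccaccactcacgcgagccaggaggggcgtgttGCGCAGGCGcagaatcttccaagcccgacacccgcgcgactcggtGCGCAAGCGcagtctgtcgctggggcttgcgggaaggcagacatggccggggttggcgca

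Cox6a1, chr5:115348909-115349208, minus strand: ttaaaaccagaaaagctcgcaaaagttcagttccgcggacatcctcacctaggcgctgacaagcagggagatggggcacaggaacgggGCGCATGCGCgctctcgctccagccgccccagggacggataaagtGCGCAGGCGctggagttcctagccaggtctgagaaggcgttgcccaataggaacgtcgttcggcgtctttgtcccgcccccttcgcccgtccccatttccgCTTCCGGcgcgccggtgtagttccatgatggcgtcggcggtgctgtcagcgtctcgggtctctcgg

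None of the 3 cores was in the Atp5j window at the start of ENSMUST00000023608, the called transcript, nor in the windows of Ndufv2 and Ndufb5, which cover the starts of ENSMUST00000143987 and ENSMUST00000127477. The other Atp5j window held an ETS and a YY1 core. The Atp5j2 window, which covers the start of ENSMUST00000037056 and not that of ENSMUST00000161741, held a YY1 core.

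Depth differed between the groups. Size factors were 0.818 to 1.47 in Sham and 0.501 to 1.22 in HF-HI, and the reads recovered in listed transcripts were 5798810 to 10582858 and 3496103 to 8666307. HF-HI 2 stood apart on the first principal component, at 12.6 against −3.35 to 0.721 for the other libraries. All values below are normalized counts, that is reads divided by the size factor of the library, recovered from the deposited variance-stabilized (VSD) values. Means carry the SD over the 7 Sham or 8 HF-HI libraries. Reads of subunits with processed pseudogenes or close relatives, such as Cox6a1, Cox7c, Uqcrh and the 3 Atp5g genes, may be divided with those copies, so their levels are uncertain.

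The 86 members together made up 0.981% of the reads in listed transcripts in Sham (range 0.912% to 1.02%) and 0.975% in HF-HI (0.918% to 1.01%). Their summed level was 69640 ± 2632 in Sham and 68470 ± 1819 in HF-HI, and the groups overlapped over nearly their whole range. The 13 mRNAs of the mitochondrial genome, at 290700 ± 22760 and 243800 ± 49370, were a larger pool and a more variable one. Their SD was 7.83% of the mean in Sham and 20.3% in HF-HI, against 3.78% and 2.66% for the nuclear members.

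Levels were compared between genes per kilobase of transcript, as means over all 15 libraries. Complex IV had the highest median, 2008 normalized counts per kilobase over 12 genes, followed by complex V at 1222 over 16, complex III at 836 over 8, complex I at 480 over 34 and complex II at 433 over 4. The 3 assembly factors, which help build complex I and are not parts of it, had a median of 111. Ranges within complexes were wide, and those of neighbouring complexes overlapped. The highest gene of complex IV was Cox8a, a small membrane subunit, at 6010 ± 854 per kilobase (SD, n = 15), above the levels of 98.4% of all listed transcripts. Cox4i1, the largest nuclear subunit of complex IV, followed at 4082 ± 271. In complex V the catalytic subunit Atp5b led at 3913, and in complex III the small subunits Uqcr11 (1913 ± 193) and Uqcrh (1902 ± 145) differed by less than their SD. Complex I was led by Ndufb9, an accessory subunit, at 1563 ± 164, while its lowest was Ndufc1 at 114. In complex II, Sdha, the flavoprotein that oxidizes succinate, was at 829.4 and the membrane anchor Sdhc at 112.

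**Figure D1:**
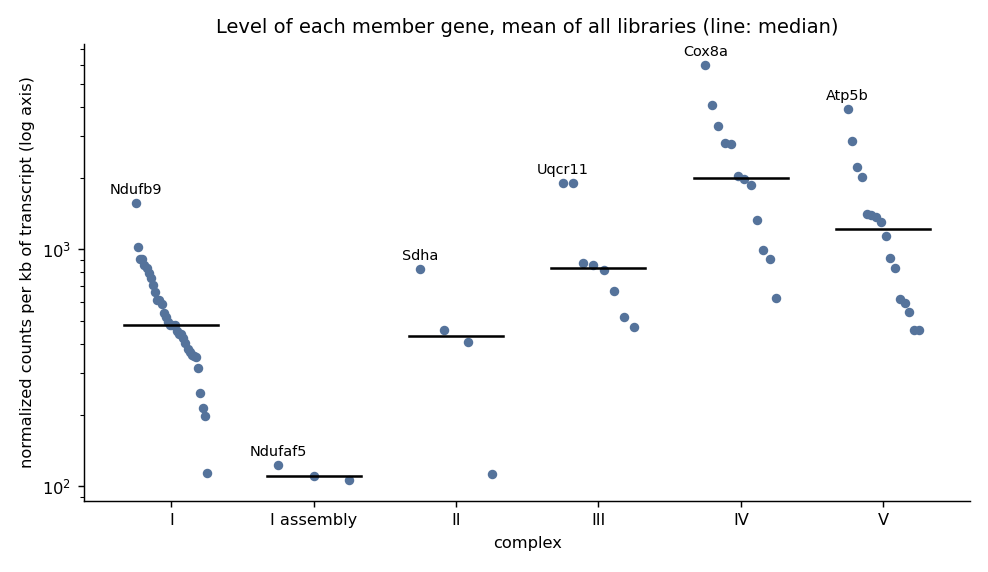
Mean normalized counts per kilobase over all 15 libraries (log axis) for the most abundant member transcript of each gene, by complex, with 1 point per gene and a line at the median. Medians run from 111 for the assembly factors to 2008 for complex IV, and the gene named in each column is the highest of its complex.

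The comparison of HF-HI with Sham asked whether these genes differ 1 month after the impacts. No member passed the Benjamini-Hochberg threshold of 0.1 in limma, as was so for all 10370 transcripts, and the smallest adjusted p among members was 0.408. At an unadjusted p under 0.05, referred to here as called, 4 of 86 members (4.65%) differed, 1 higher and 3 lower in HF-HI. Over all transcripts 916 (8.83%) were called, 4.94% higher and 3.9% lower, so the members' share was not above the background. Without Sham 5, 7 members were called. Over all transcripts, fits that each left out 1 library called 748 to 987. The 4 called transcripts were of Ndufb5 (2), Ndufv2 and Atp5j. The median log2 ratio of the members was −0.02, beside −0.002 for all transcripts, with 35 members above 0 and 51 below. Over all transcripts 5134 were above 0 and 5236 below. In size, the members' ratios had a median of 0.06 against 0.07 for all, and 64 of 86 were within 0.1 of no change on the log2 scale. So were 6393 of all 10370 transcripts, whose median level was lower, 316.5 normalized counts against 493.3 for members.

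By complex the median log2 ratio was −0.002 for complex I, 0.0 for complex II, −0.04 for complex III, −0.04 for complex IV and −0.04 for complex V. Calls were 3 in complex I, 1 in complex V and 0 in complexes II, III and IV and the assembly factors. Summed levels overlapped between the groups in every complex. Complex I had 16750 ± 586 in Sham and 16630 ± 411 in HF-HI, complex II 3798 ± 106 and 3777 ± 65.9, complex III 6238 ± 194 and 6158 ± 286, complex IV 17690 ± 957 and 17410 ± 1173, and complex V 24660 ± 1007 and 24000 ± 596. The lowest complex IV sum, 15240, was that of HF-HI 2.

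**Figure D2:**
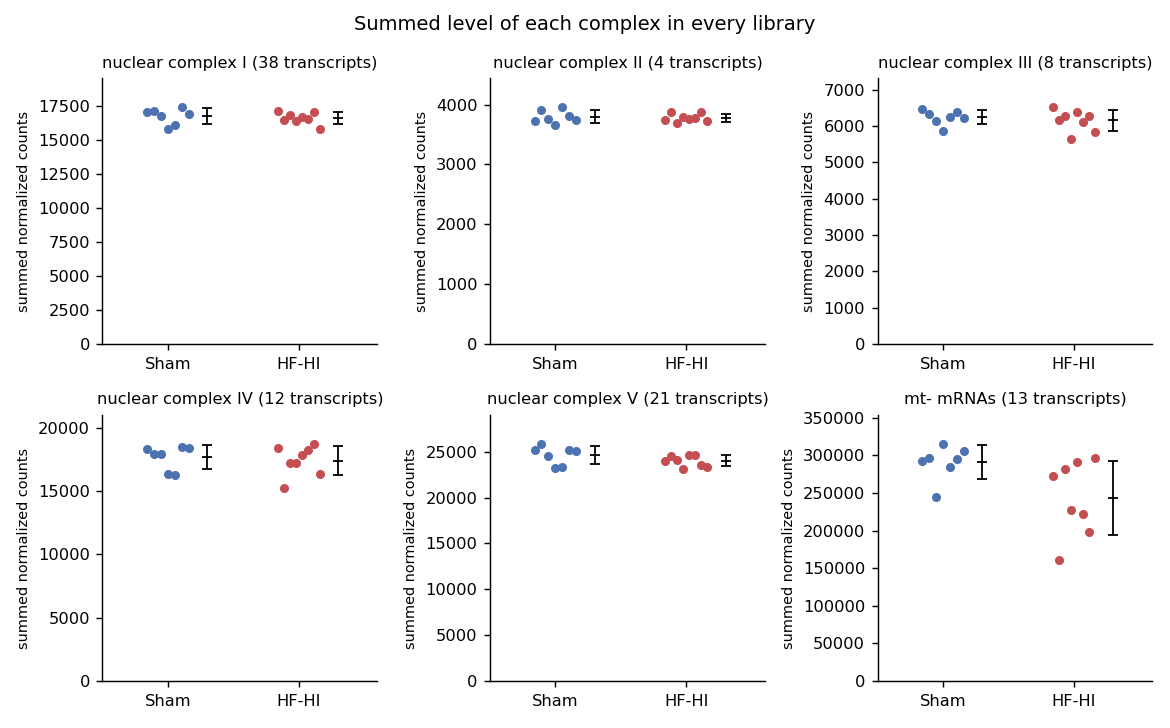
Summed normalized counts of the members of each nuclear complex, and of the 13 mitochondrial mRNAs, in every Sham and HF-HI library (1 point per library, in order of replicate number; bars give mean ± SD). The nuclear sums overlap in each panel, for example 15840 to 17120 in HF-HI against 15830 to 17440 in Sham for complex I, while the mitochondrial sum in HF-HI reaches down to 160700.

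In complex I, Ndufv1, which binds NADH, had 613, 725 and 799 (lowest, median, highest) in Sham and 612, 733 and 908 in HF-HI, where the range covered the whole Sham range. Ndufs1, the largest iron-sulfur subunit, had 2 transcripts of near equal level, with means of 566 ± 128 and 548 ± 111 in Sham and 576 ± 41.4 and 546 ± 83.3 in HF-HI. The accessory subunits Ndufa10 (779 ± 37.6 in Sham, 760 ± 38.6 in HF-HI) and Ndufb8 (634 ± 78.1 and 610 ± 85.3) also overlapped. Ndufb10 had a narrow spread in Sham, 465 ± 9.83, and was 434 ± 38.2 in HF-HI. There 6 of 8 libraries lay below all of Sham and the other 2 above all of Sham. Ndufb10 was not called (limma unadjusted p = 0.0654).

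The 3 called transcripts of complex I belonged to genes with several listed transcripts. Ndufv2 encodes an iron-sulfur subunit beside Ndufv1. Its transcript ENSMUST00000143987 (chr17:66078638-66101559, minus strand) had 301, 415 and 487 in Sham and 162, 306 and 402 in HF-HI. All 8 HF-HI libraries were below the Sham median and 4 were below every Sham library, but the groups overlapped. The means were 413 ± 72.6 and 293 ± 85.6, a log2 ratio of −0.50 (limma unadjusted p = 0.00924, adjusted p = 0.408). The other transcript, ENSMUST00000024909, had 420 ± 82.7 in Sham and 465 ± 80.4 in HF-HI and was not called. It has an additional noncoding exon of 97 bases at chr17:66100978-66101074. Its annotated coding sequence is shorter, 456 bases with the start codon in exon 5, against 744 bases for ENSMUST00000143987.

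For Ndufb5, ENSMUST00000122290 had 35.5, 145 and 198 in Sham and 156, 212 and 337 in HF-HI. All 8 HF-HI libraries were above the Sham median, 6 were above every Sham library, and the lowest value was that of Sham 3. The means were 146 ± 55.5 and 223 ± 55.4, a log2 ratio of 0.61 (limma unadjusted p = 0.0155, adjusted p = 0.460). The longer ENSMUST00000127477, which holds the first coding exon shown above, had 332, 413 and 554 in Sham and 280, 349 and 408 in HF-HI. All 8 HF-HI libraries were below the Sham median and 3 were below every Sham library. Its log2 ratio was −0.27 (limma unadjusted p = 0.0275, adjusted p = 0.514).

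The opposite differences left the gene's sum almost level. The summed reads of Ndufb5 were 570 ± 36.1 in Sham and 574 ± 52.2 in HF-HI, with a log2 difference of 0.02 (95% interval −0.10 to 0.13) from voom and limma. The share of ENSMUST00000122290 in that sum had a median of 27.7% in Sham (range 6.02% to 37.4%) and a median of 36.9% in HF-HI (range 30.7% to 50.5%). For Ndufv2 the share of ENSMUST00000024909 had medians of 51.2% (range 37.6% to 63.1%) and 57.3% (range 49.5% to 79.8%). The highest Ndufv2 shares, 79.8% and 73.8%, were in HF-HI 4 and 7, the libraries with the smallest size factors. The highest Ndufb5 shares, 50.5%, 48.3% and 41.7%, were in HF-HI 2, 4 and 7.

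**Figure D3:**
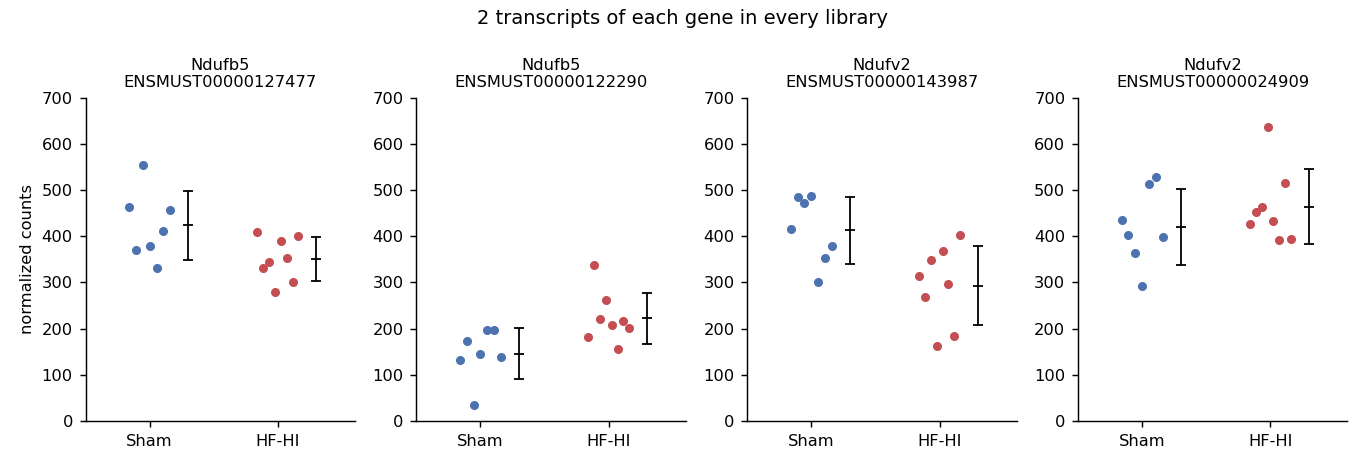
Normalized counts of the 2 member transcripts of Ndufb5 and of Ndufv2 in every library (1 point per library; bars give mean ± SD). ENSMUST00000127477 and ENSMUST00000143987 lie lower in HF-HI and ENSMUST00000122290 lies higher, and in each panel the groups overlap.

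Calls were found among members whose gene had several listed transcripts, 4 of 24 (16.7%), while 0 of 62 members from genes with 1 listed transcript were called in limma. Over all transcripts the shares were 9.42% and 8.52%. The former members also had a larger spread and a lower level, with a median coefficient of variation in Sham of 15.7% against 7.73% and a median of 412 normalized counts against 513. The part of these properties in the 4 calls was not tested.

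Depth also moved with the calls within HF-HI. The Atp5j transcript described below had its 3 lowest values in HF-HI 2, 4 and 7, the 3 libraries with the smallest size factors. Those libraries held the 3 lowest values of the Ndufv2 transcript ENSMUST00000143987 and of ENSMUST00000127477 of Ndufb5 as well. Sham 3, with the smallest size factor in Sham (0.818), had the highest ENSMUST00000127477 (554) and the lowest ENSMUST00000122290 (35.5). Its value for the Ndufv2 transcript was 472. Among the 12 libraries with a size factor of at least 0.8 none of the 4 members was called, with limma unadjusted p of 0.0768 for Ndufv2, 0.218 for Atp5j, and 0.108 and 0.209 for ENSMUST00000122290 and ENSMUST00000127477 of Ndufb5. With the log2 size factor as a covariate, ENSMUST00000122290 of Ndufb5 was called (0.0336) and the other 3 were not (0.149 to 0.357). The fit of 12 libraries also has less power for every transcript. Depth and group overlap in these libraries, so their parts in the 4 differences cannot be told apart.

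Summed per gene, reads of 3 of 77 member genes (3.9%) were called by voom and limma, all lower in HF-HI. Over 7741 genes 9.44% were called, 5.19% higher and 4.25% lower. These were Atp5j2, Ndufv2 and Atp5j, with no adjusted p under 0.291. The sum of Ndufv2 was 833 in Sham and 758 in HF-HI, with a log2 difference of −0.13. It was no longer called among libraries with a size factor of at least 0.8 (limma unadjusted p = 0.0545), whereas Atp5j (log2 difference −0.14) and Atp5j2 (−0.32) were still called. With the log2 size factor as a covariate the sums of Atp5j (−0.19) and Atp5j2 (−0.34) were called and that of Ndufv2 was not (limma unadjusted p = 0.0985). For 65 of the 77 genes the 95% interval of the difference lay within a 1.2-fold change in either direction, and for all 77 it lay within 1.5-fold. Over all 7741 genes, 5757 intervals lay within 1.2-fold and 7461 within 1.5-fold.

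In complex II, the succinate dehydrogenase shared with the TCA cycle, no member was called. Sdha had 2345, 2382 and 2536 in Sham and 2270, 2374 and 2565 in HF-HI, so the HF-HI range enclosed that of Sham. The iron-sulfur subunit Sdhb had 541 ± 36.7 and 507 ± 70.4. The anchors Sdhc (344 ± 28.9 and 368 ± 43.7) and Sdhd (500.3 ± 27.6 and 503.4 ± 49.97) overlapped as well.

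None of the 8 members of complex III was called, and their log2 ratios lay between −0.10 and 0.04. The core proteins Uqcrc1 (1329 ± 73.7 in Sham, 1364 ± 103 in HF-HI) and Uqcrc2 (1276 ± 49.0 and 1263 ± 94.2) differed by less than their SD. The Rieske protein Uqcrfs1, which carries the iron-sulfur cluster, had 656 ± 51.8 and 625.3 ± 47.6. Uqcrb had 463 ± 44.4 and 455 ± 26.0.

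None of the 12 members of complex IV was called, with log2 ratios between −0.12 and 0.05. Cox4i1 had 2728, 2997 and 3264 in Sham and 2837, 3086 and 3456 in HF-HI. Cox8a had 2794, 3461 and 3598 in Sham and 1953, 3510 and 3745 in HF-HI, where HF-HI 2 alone was far below the others. Cox5b had 1017, 1272 and 1389 in Sham and 969, 1116 and 1246 in HF-HI, and all 8 HF-HI libraries were below the Sham median. It was not called (limma unadjusted p = 0.174). Cox5a was 640 ± 50.4 and 642 ± 49.5, Cox6a1 1634 ± 170 and 1586 ± 210, Cox6c 1646 ± 136 and 1695 ± 157, and Cox7a2 904 ± 68.2 and 852 ± 49.8. Cox7c, a small subunit, had the lowest ratio of the complex, from 1148 ± 80.1 to 1054 ± 104 (limma unadjusted p = 0.0666). Ndufa4, named for complex I but now placed in complex IV, had 1320 ± 127 and 1285 ± 80.1.

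In complex V the values of the catalytic head overlapped between the groups. Atp5a1, the alpha subunit, had 5079, 5595 and 5788 in Sham and 5178, 5462 and 6011 in HF-HI. The beta subunit Atp5b had 7110, 7821 and 8090 in Sham and 6683, 7335 and 8107 in HF-HI, with 7 of 8 HF-HI libraries below the Sham median and a 95% interval of −0.14 to 0.03 for the log2 difference. The gamma subunit Atp5c1 had 1366 ± 105 and 1289 ± 120. The c-ring, through which protons turn the rotor, is encoded by Atp5g1, Atp5g2 and Atp5g3. Their most abundant transcripts had 848 ± 58.4, 210 ± 41.1 and 692 ± 104 in Sham, and 824 ± 50.8, 194 ± 27.2 and 624 ± 187 in HF-HI. Atp5o, of the peripheral stalk, had 1150 ± 41.8 and 1147 ± 98.8.

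Atp5j, which encodes coupling factor 6 of the peripheral stalk, was the called member of complex V. ENSMUST00000023608 had 401, 514 and 633 in Sham and 264, 346 and 619 in HF-HI. In HF-HI 7 of 8 libraries were below the Sham median and 5 were below all of Sham, while HF-HI 3 was near the top of the Sham range. The means were 506 ± 71.96 and 379 ± 126, a log2 ratio of −0.42 (limma unadjusted p = 0.0194, adjusted p = 0.476). Its retained-intron transcript ENSMUST00000146103 had 207 ± 77.2 and 266 ± 133. Summed over both, Atp5j was 713 in Sham and 645 in HF-HI, with a log2 difference of −0.13 (95% interval −0.24 to −0.03, voom and limma).

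Atp5j2 encodes the membrane subunit f, and neither of its transcripts was called. ENSMUST00000037056 had 267, 282 and 356 in Sham and 0, 235 and 363 in HF-HI. HF-HI 1 had no read for it and HF-HI 3 had 6.02 normalized counts, whereas no other library was below 207. The other transcript, ENSMUST00000161741, was at its 2 highest values in the same libraries, 322 and 376. The sum over both was 539 in Sham and 453 in HF-HI, a log2 difference of −0.27 (95% interval −0.45 to −0.10, voom and limma unadjusted p = 0.00414). Without HF-HI 1 and 3 it was −0.14 (95% interval −0.24 to −0.03).

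**Figure D4:**
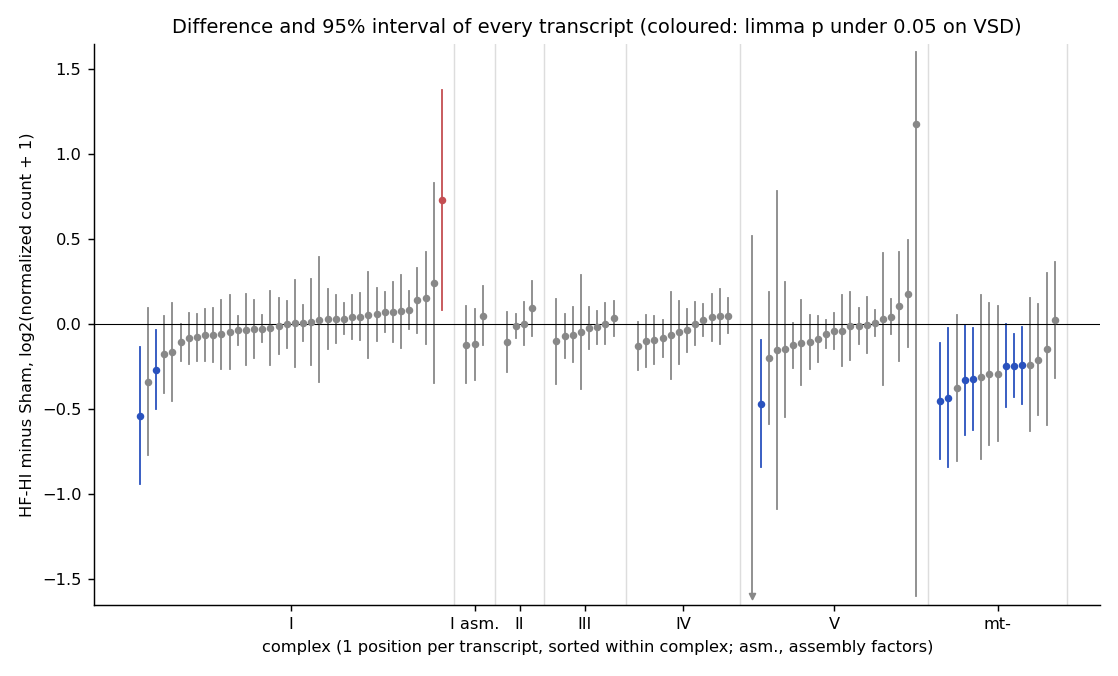
Difference between HF-HI and Sham on the log2(normalized count + 1) scale with its 95% interval, for each of the 86 members by complex and for the 15 mitochondrial transcripts, coloured where the limma unadjusted p on VSD was under 0.05. Coloured points number 4 among the members and 7 among the mitochondrial transcripts, and the axis ends at ± 1.6, beyond which 1 Atp5j2 value (arrowhead) and 2 intervals of complex V run on.

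Another 10 listed transcripts with matching names are not of the protein_coding type, and 2 of them (20%, against 8.83% of all transcripts) were called, 1 higher and 1 lower. The retained-intron transcript ENSMUST00000155377 of Cox7b had 438 ± 95.9 in Sham and 349 ± 59.8 in HF-HI. The processed transcript ENSMUST00000126751 of Atp5b, which codes for no protein, had 72.4, 245 and 588 in Sham and 325, 495 and 801 in HF-HI. All 8 HF-HI libraries were above the Sham median, though 3 of the 8 were above every Sham library. It made up a small part of the reads of the gene, whose coding transcript is described above.

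The transcripts of the mitochondrial genome were set beside these genes. Of 15, 7 were called in limma, all lower in HF-HI (background for lower, 3.9%), and the median log2 ratio was −0.25. No adjusted p was under 0.433. The count was 2 without any 1 of Sham 1, 4, 6 or 7 or HF-HI 4, 6 or 7, 3 without Sham 2 and 4 without Sham 5. The called mRNAs were mt-Nd1 and mt-Nd3 of complex I, mt-Cytb of complex III, mt-Co1, mt-Co2 and mt-Co3 of complex IV and mt-Atp6 of complex V. The median log2 ratios of the nuclear and mitochondrial sets were thus −0.02 and −0.25. The mitochondrial transcripts share a few precursors, and their reads may also map to nuclear copies.

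Reads of mitochondrial mRNAs per read of the nuclear members were 3.51, 4.14 and 4.82 (lowest, median, highest) in Sham and 2.41, 3.64 and 4.52 in HF-HI. The means were 4.18 ± 0.387 and 3.56 ± 0.729, and 4 HF-HI libraries were below all of Sham. By complex the ratio was 2.61 ± 0.343 and 2.17 ± 0.522 for complex I, 2.13 ± 0.215 and 1.78 ± 0.434 for complex III, 11.6 ± 1.09 and 10 ± 1.88 for complex IV, and 1.19 ± 0.148 and 0.957 ± 0.275 for complex V. Depth moved with this ratio, for the 5 libraries with the smallest size factors (HF-HI 4, 7, 2 and 6, and Sham 3) had the 5 lowest ratios. Among libraries with a size factor of at least 0.8, the ratio was 4.18 ± 0.387 in Sham and 3.97 ± 0.4998 in 5 HF-HI libraries, and 0 mitochondrial transcripts were called. With the log2 size factor as a covariate, 0 were called. The median difference in that fit, from limma on log2(normalized count + 1), was −0.01. Restriction by size factor also leaves fewer libraries and less power for every transcript. Since depth and group overlap, their parts in the mitochondrial difference cannot be told apart.

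**Figure D5:**
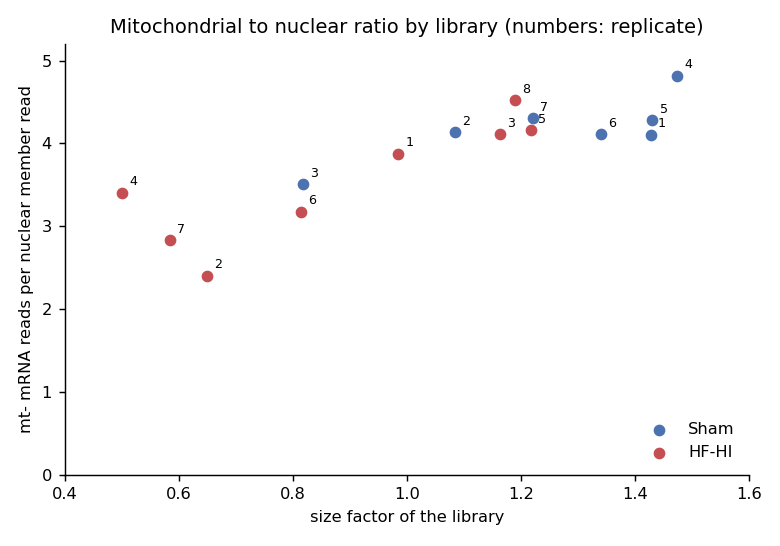
Reads of the 13 mitochondrial mRNAs per read of the 86 nuclear members (vertical axis) against the size factor of the library (horizontal axis), with 1 point per library numbered by replicate. The 5 libraries with the smallest size factors, 4 of them HF-HI, have the 5 lowest ratios, down to 2.41.

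Other mitochondrial genes were counted from lists. Assembly factors outside the naming rule gave 0 calls among 5 transcripts for complex I and 0 among 14 for complexes II to V. A list of other associated genes outside the rule (Cyc1, Chchd2 and Usmg5) gave 0 calls among 3. Cyc1, the cytochrome c1 of complex III, was at 649 ± 46.9 in Sham and 652 ± 68.7 in HF-HI. Electron carriers and entry points gave 0 among 5, and cytochrome c (Cycs) had 1055 ± 65.4 and 1009 ± 90.0. Of 23 transcripts of the TCA cycle 1 was called, lower, that of Ogdh (1107 ± 111 and 978 ± 102). Of 15 transcripts of carriers and channels 1 was called, lower, that of the glutamate carrier Slc25a22 (478 ± 56.1 and 387 ± 86.6), while the adenine nucleotide carrier Slc25a4 had 4275 ± 294 and 4243 ± 165. The regulators of mitochondrial biogenesis gave 0 calls among 6 transcripts. Ppargc1a, a coactivator of respiratory genes, had 490 ± 35.5 and 504 ± 38.8, Gabpa 243 ± 28.9 and 227 ± 23.5, and Yy1 372 ± 41.3 and 380 ± 56.5. Genes of mitochondrial genome maintenance and expression gave 0 among 8. All these counts are from limma at an unadjusted p under 0.05, beside 8.83% of all transcripts called, and the lists' median log2 ratios lay between −0.03 and 0.04.

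Markers of cell types in the samples showed that cortical tissue was present in all libraries. Excitatory neuron markers summed to 0.908 to 1.03 of their mean over libraries in Sham and 0.962 to 1.09 in HF-HI, with all 6 genes detected and 1 of 7 transcripts called, higher. Markers of striatum, which adjoins the cortex, summed to 0.862 to 1.31 among Sham libraries and 0.614 to 1.25 among HF-HI libraries, with 3 of 15 transcripts (20%) called, lower, beside 3.9% of all transcripts called lower. Astrocyte markers gave 1 of 10 called lower and microglial markers 1 of 6 called lower. Neuronal markers gave 1 of 9 called higher, and inhibitory neuron, oligodendrocyte, endothelial, choroid plexus and blood markers gave 0 calls. Choroid plexus markers, of which 2 of 5 genes were listed, summed to 2.28 to 2.84 of their mean in Sham 1, Sham 2, HF-HI 2 and HF-HI 5, and to 0.405 to 0.490 in the other 11 libraries. The part of cell composition in the values above was not tested.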

How the data were processed

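Cortical total RNA libraries of 7 Sham and 8 HF-HI samples were grouped by their titles. Per the study's methods and the submitters' processing notes, the authors aligned reads to mm10 with STAR, estimated counts per transcript with eXpress, and normalized and variance-stabilized them in DESeq2. They deposited the resulting values on a log2 scale for 10370 transcripts, and genes of low count were not among them (lowest mean 107.9 normalized counts). The annotation release was not given in the sources used here. Transcripts were matched to GENCODE M21 by identifier (10241 matched, 129 did not).

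The transformation was inverted, and 100.0% of values were whole multiples of 1 step per library (tolerance 0.1 reads), which gave normalized counts and size factors. A single read was worth 0.679 to 2.00 normalized counts, which sets the counting precision. Each transcript was tested with limma 3.58.1 in R 4.3.3, fitted to the values as deposited with a single group term and a trended eBayes prior, two-sided, and Benjamini-Hochberg adjustment over all transcripts at 0.1. Calls at an unadjusted p under 0.05 were counted as well. Reads summed per gene were tested with voom and limma. Log2 ratios are of mean normalized counts, and 95% intervals for single transcripts are from limma on log2(normalized count + 1). The added 1 shrinks changes of low values, whereas a single library at or near 0 enlarges them. For ENSMUST00000037056 of Atp5j2 the difference on that scale was −1.86, against a log2 ratio of −0.59. The code was tested on simulated data.

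The members, lists and tests were chosen with earlier results of these data known. Named genes were every called member, a panel of core subunits by their most abundant transcript, the highest gene per kilobase of each complex, and the mitochondrial mRNAs. A gene of the panel is not reported here. Ndufb10, Cox7c, Cox7b, Atp5j2, Atp5f1, Cox6b1 and the genes named from the lists were chosen after their values were seen. Alternatives were voom, other scalings, a filter at a mean of 300, log2 with a pseudocount of 1, a depth covariate, a replicate block, and each library left out. Restriction to size factors of at least 0.8 was added after seeing the data. Promoters were from RefSeq (GRCm38.p6). Within each group, no pair of libraries agreed within sampling noise.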

Additional observations from a re-analysis of the deposited data

Results flagged for a closer look

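In groups of 7 and 8 libraries, 4 members had a library far from the others of its group by Dixon's test at the 95% level. The test was run on 80 groups, of which chance gives about 1 in 20, and did not cover every member. The Ndufb5 transcript ENSMUST00000122290 had 35.5 normalized counts in Sham 3, where the other Sham libraries had 132 to 198. Without Sham 3 it was still called (limma unadjusted p = 0.0205), with a VSD difference of 0.10, against 0.143 with all libraries. VSD differences are compressed beside log2 ratios, for the log2 ratio of this transcript with all libraries was 0.61. Cox8a (ENSMUST00000039758) had 1953 in HF-HI 2, against 2898 to 3745 in the other HF-HI libraries. Atp5c1 (ENSMUST00000114897) had 1028 in HF-HI 2, against 1243 to 1394. Sdhd (ENSMUST00000000175) had 616 in HF-HI 7, against 457 to 526.2. Members not covered by the test also had libraries apart from the rest. Atp5f1 (ENSMUST00000118209) had 1790 in HF-HI 6, against 617.1 to 1063 in the other HF-HI libraries. The gene's other listed transcript, ENSMUST00000133320, had 14.75 in HF-HI 6, against 757.8 to 1310 in the other HF-HI libraries. Summed over both, Atp5f1 was 1854 ± 118 in Sham and 1843 ± 82.4 in HF-HI. Cox6b1 (ENSMUST00000075738) had 904.7 in HF-HI 2, against 1138 to 1298.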

How the results depend on the processing

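The count of 4 called members, 1 higher and 3 lower, was recomputed under each alternative. With the log2 size factor as a covariate it was 2 (1 lower), with 533 calls over all transcripts and 0 mitochondrial calls. Among libraries with a size factor of at least 0.8, chosen after seeing the data, it was 1 (0 higher, 1 lower), an Atp5j2 transcript and none of the 4, with 0 mitochondrial calls. That fit has fewer libraries and so less power for every transcript. Its count over all transcripts is not given here, so the lost calls have no background beside them. Reads summed per gene gave 0 members higher and Ndufb5 at 0.018, which reversed the sign of ENSMUST00000127477, as both its transcripts enter that sum. A mean of at least 300 normalized counts left 0 members higher and 525 calls over all transcripts, as fewer transcripts were tested, and quantile normalization gave 3 mitochondrial calls. Where no construction shows it, the cause was not tested.

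With each library left out in turn, called members numbered 3 to 7, the 7 without Sham 5 (1 to 2 higher, 2 to 6 lower), mitochondrial calls 2 to 7 and calls over all transcripts 748 to 987. The members' median log2 ratio lay between −0.03 and −0.01 and the mitochondrial one between −0.32 and −0.17. ENSMUST00000127477 of Ndufb5 was no longer called without Sham 1, 3 or 7 or HF-HI 4 or 7, and Cox5b and Cox7a2 were among those called without Sham 5.

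The replicate numbers did not pair the libraries, since correlations of the deviations of same-numbered libraries ran from −0.138 to 0.09. With the replicate block 5 members were called, 1 higher and 4 lower, with 7 mitochondrial calls and 891 over all transcripts. The members' median difference in that fit, from limma on log2(normalized count + 1), was −0.02. Reads in listed transcripts, 3496103 in the shallowest library, limit the precision of low values.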
